A study of Mus musculus with 24 samples.

Results

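The 8 triple tumours were bulk RNA-seq samples of Lewis Lung Cancer, a transplantable mouse line that the labels give as lung adenocarcinoma, grown in wild-type (WT) mice. They were taken by their label from a table of 24 tumours, and every one of the 18723 genes of that table was described. The triple group had received anti-C5aR1 on top of Poly I:C with anti-PD-1. The dual group (8 tumours) had received Poly I:C and anti-PD-1, and the vehicle group (8 tumours) had received vehicle; host genotype and tumour line were the same in all 3 groups. Per the labels' protocols, anti-PD-1 was injected into the peritoneum at 100 µg on days 7, 10 and 14, Poly I:C was injected into the tumour at 50 µg on days 11 and 15, and the C5aR1 antagonist PMX53, taken here as the agent behind the anti-C5aR1 label, was given under the skin at 1 mg/kg each day from day 6 to the triple group alone. The question was how far the 8 triple tumours differed among themselves, which genes varied together across them, and how that spread stood beside the spread within dual and within vehicle tumours. Levels of the groups are shown side by side but no difference in group means was tested.

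Poly I:C is a synthetic double-stranded RNA that is sensed as if it were viral and switches on interferon genes. Anti-PD-1 blocks an inhibitory receptor of T cells, and PMX53 blocks the receptor of the complement fragment C5a, which neutrophils and macrophages carry. A transplanted tumour is a mixture of cancer cells with infiltrating immune cells, fibroblasts, vessels and pieces of neighbouring muscle, fat or skin, so the level of a gene in bulk RNA follows both the mixture and each cell's own expression. Fewer cells of a type and less RNA per cell cannot be told apart in such samples. Cholesterol synthesis, which enters the results below, is run by a set of enzymes that the transcription factor SREBP-2 switches on together when sterols are scarce.

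Of the paired epithelial keratin genes that mark an adenocarcinoma, Krt8 had between 1 and 54 reads in triple tumours, 9 and 65 reads in dual tumours and 13 and 53 reads in vehicle tumours. Krt18 had between 78 and 737 reads in triple tumours, 349 and 763 reads in dual tumours and 422 and 940 reads in vehicle tumours, while Sftpc, Sftpb and Nkx2-1 are not in the table used here. Reads assigned to genes ran from 15671388 to 19254090 in triple, 14535983 to 19046105 in dual and 14438318 to 17225195 in vehicle tumours. The median log2 CPM over genes lay between 3.52 in T_331 and 3.84 in T_352, between 3.57 and 3.67 in dual tumours and between 3.59 and 3.70 in vehicle tumours. T_331 and T_352 stood apart from the other triple tumours in most of what follows, so the leading values are also given without them, a choice made after the data were seen. Each group filled its own consecutive run of library numbers, so an effect of library order and an effect of treatment cannot be told apart. Tumours are named by group letter and mouse number; the mouse numbers are the only sign that tumours came from separate animals, and p-values measure the spread between these samples, which may be technical in part.

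The promoter stretches of genes that the results turn on are shown first, from RefSeq's 300-base windows (250 bases before to 50 after the gene's start, build GRCm38.p6, whereas the expression table names GRCm39). Hmgcs1 and Idi1 make early intermediates of cholesterol synthesis, whose genes varied together. Rsad2 and Ifit3 are antiviral genes induced by type I interferon, and Irgm2 is an interferon-gamma-induced GTPase gene whose spread ran the other way. Capitals mark TCACNCCAC (a sterol response element) and CCAAT (the CCAAT box) in the windows of Hmgcs1 and Idi1, and GAAA, any 2 bases and GAAA again (an interferon-stimulated response element) in those of Rsad2, Ifit3 and Irgm2. Each was searched on both strands, and matches to the other motifs are left unmarked in a window. The windows were Hmgcs1 at chr13:119690101-119690400 (plus strand), Idi1 at chr13:8885356-8885655 (plus strand), Rsad2 at chr12:26456403-26456702 (minus strand), Ifit3 at chr19:34583279-34583578 (plus strand) and Irgm2 at chr11:58214727-58215026 (plus strand).
Hmgcs1: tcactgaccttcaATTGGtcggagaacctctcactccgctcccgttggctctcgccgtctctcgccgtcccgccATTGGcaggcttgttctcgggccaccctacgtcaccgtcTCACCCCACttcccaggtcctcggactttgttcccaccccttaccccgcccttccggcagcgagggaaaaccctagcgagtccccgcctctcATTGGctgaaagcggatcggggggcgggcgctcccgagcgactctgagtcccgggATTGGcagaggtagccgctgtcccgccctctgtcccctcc
Idi1: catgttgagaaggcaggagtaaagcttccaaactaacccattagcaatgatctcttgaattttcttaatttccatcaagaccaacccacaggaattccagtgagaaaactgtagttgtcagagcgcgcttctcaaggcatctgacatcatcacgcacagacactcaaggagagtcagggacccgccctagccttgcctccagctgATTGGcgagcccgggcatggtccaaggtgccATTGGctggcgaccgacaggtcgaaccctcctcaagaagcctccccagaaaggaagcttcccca
Rsad2: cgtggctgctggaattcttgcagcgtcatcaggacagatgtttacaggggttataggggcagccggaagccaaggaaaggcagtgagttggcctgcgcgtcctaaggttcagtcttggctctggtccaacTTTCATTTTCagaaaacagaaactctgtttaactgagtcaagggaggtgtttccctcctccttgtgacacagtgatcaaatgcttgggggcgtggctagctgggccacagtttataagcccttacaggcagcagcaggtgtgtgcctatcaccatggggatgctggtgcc
Ifit3: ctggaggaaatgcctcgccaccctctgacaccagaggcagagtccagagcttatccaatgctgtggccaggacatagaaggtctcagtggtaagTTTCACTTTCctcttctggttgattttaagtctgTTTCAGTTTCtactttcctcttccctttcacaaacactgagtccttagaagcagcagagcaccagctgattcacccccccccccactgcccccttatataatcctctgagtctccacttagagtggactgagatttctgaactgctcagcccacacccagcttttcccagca
Irgm2: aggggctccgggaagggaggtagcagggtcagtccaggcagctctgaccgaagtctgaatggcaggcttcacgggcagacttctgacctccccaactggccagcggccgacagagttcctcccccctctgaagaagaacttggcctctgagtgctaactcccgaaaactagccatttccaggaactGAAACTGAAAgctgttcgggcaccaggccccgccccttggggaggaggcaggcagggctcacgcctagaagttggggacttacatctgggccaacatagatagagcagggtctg

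The typical gene varied more among triple tumours than among dual or vehicle tumours. The median SD of log2 CPM over all genes was 0.453 in triple, 0.294 in dual and 0.248 in vehicle tumours. A gene's SD was larger in triple than in dual tumours for 14007 of 18723 genes (74.8%) and larger than in vehicle tumours for 15239 genes (81.4%). The median SD ratio was 1.42 against dual tumours (0.51 on the log2 scale) and 1.64 against vehicle tumours (0.71 on the log2 scale). An SD over 1 log2 unit was found for 3677 genes in triple, 2002 in dual and 1593 in vehicle tumours. Read counting alone gave a median SD of 0.100 in triple, 0.104 in dual and 0.102 in vehicle tumours. Among genes from the 75th percentile of mean level upwards, where counting error is smallest, an SD over 1 was found for 64 genes in triple tumours, 4 in dual tumours and 4 in vehicle tumours. With T_331 and T_352 left out, the median log2 SD ratio was 0.18 against dual and 0.38 against vehicle tumours.

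**Figure D1:**
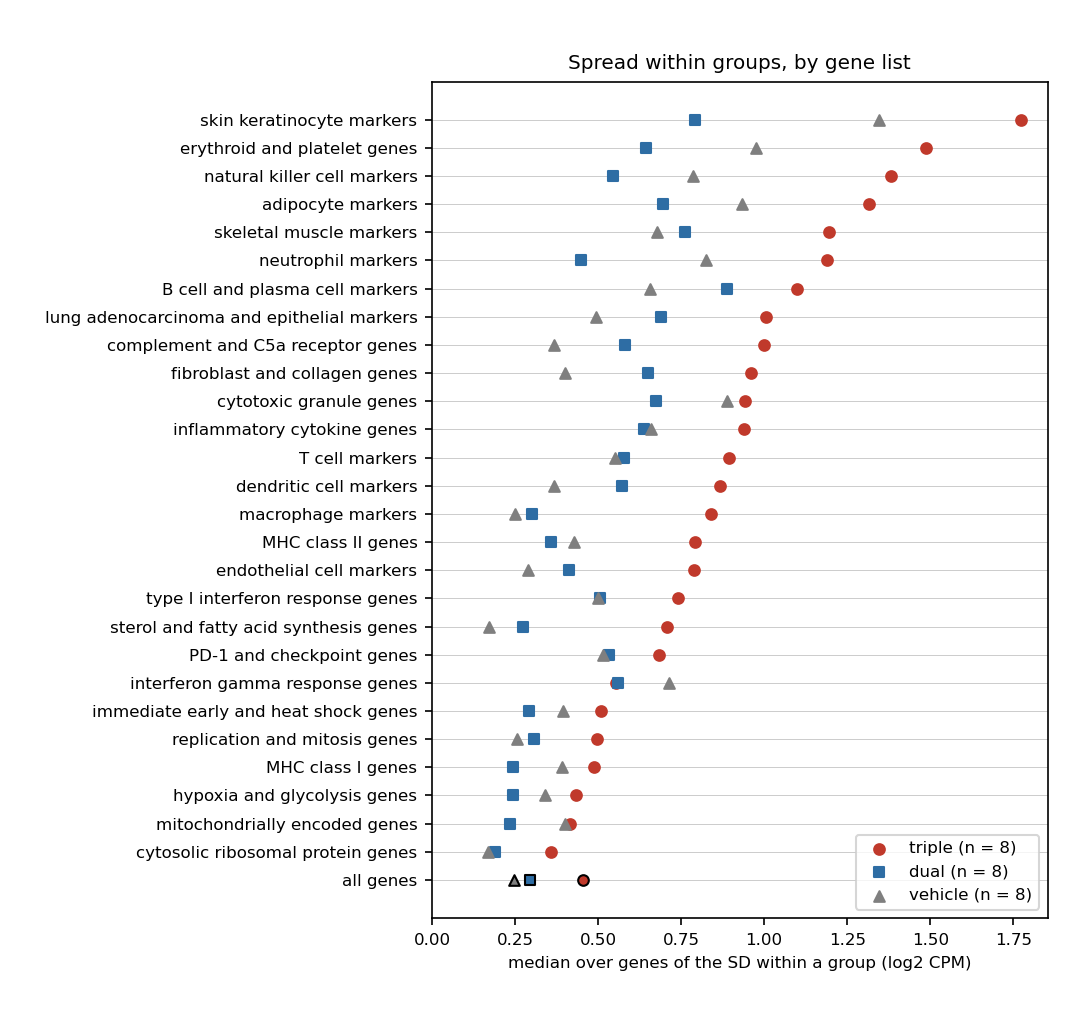
Median over the members of each gene list of the SD of log2 CPM within the triple, dual and vehicle groups (n = 8 each; horizontal axis, log2 units). The triple point is farthest right for nearly all lists; for interferon gamma response genes it is not, with 0.56 in triple, 0.56 in dual and 0.71 in vehicle tumours.

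Measured over all genes, 2 triple tumours lay far from the centre of their group. Each tumour's distance was the root mean square of its difference from the group mean in log2 CPM. It was 1.10 in T_352, 1.05 in T_331, 0.80 in T_355, 0.684 in T_363, 0.668 in T_362, 0.637 in T_354, 0.547 in T_353 and 0.518 in T_360, against 0.49 to 0.678 in dual tumours and 0.459 to 0.596 in vehicle tumours. The groups overlapped: 4 of the 8 triple tumours lay farther out than every dual tumour, and 6 of the 8 farther out than every vehicle tumour. The mean distance was 0.751 ± 0.218 in triple and 0.581 ± 0.0587 in dual tumours (SD, n = 8 each), a difference of 0.17 (exact permutation test, two-sided, p = 0.0435). Vehicle tumours averaged 0.532 ± 0.0496 (SD, n = 8), which was 0.219 lower than triple tumours (exact permutation test, two-sided, p = 0.00451). Without T_331 and T_352 the difference from dual tumours was 0.0631 (exact permutation p = 0.181) and that from vehicle tumours 0.112 (exact permutation p = 0.0176). The difference from dual tumours also missed 0.05 without T_331, T_352 or T_355 alone, and without any of the 6 dual tumours D_344, D_357, D_359, D_366, D_367 and D_368, with exact permutation p up to 0.0946.

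**Figure D2:**
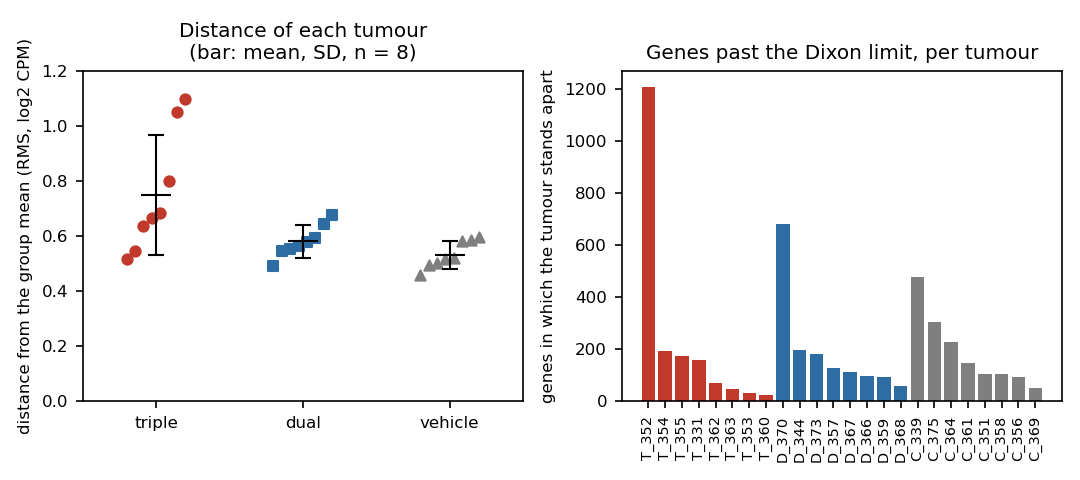
Each tumour's distance from its group mean (left, root mean square in log2 CPM, with mean and SD, n = 8 per group) and the number of genes in which it stands apart from the other 7 (right), for triple, dual and vehicle tumours. T_352 (1.10) and T_331 (1.05) lie above every dual and vehicle tumour in distance, and T_352 stands apart in 1209 genes.

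These 2 tumours lay on opposite sides of the group. The pair T_331 and T_352 was the farthest apart of all triple pairs, at a root mean square difference of 1.87 log2 units, and the pair T_353 and T_360 the nearest, at 0.739. T_331 lay closer to the other groups than T_352 did. For T_331 the root mean square difference from the dual mean was 0.723, and 74.3% of genes fell inside the range of the 8 dual tumours. For T_352 these values were 1.49 and 29.8%. Among the other triple tumours the share of genes inside the dual range was 80.1% in T_363, 72.8% in T_362, 65.9% in T_360, 53.1% in T_353, 51.6% in T_354 and 44.7% in T_355. The share inside the vehicle range was lower in each triple tumour, from 27.2% in T_352 to 54.1% in T_362.

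A Levene-type test of spread, limma on each tumour's absolute deviation from its group mean with Benjamini-Hochberg adjustment over all 18723 genes, called 283 genes more variable in triple than in dual tumours (1.51%) and 16 less variable (0.0855%). Against vehicle tumours it called 1237 genes more variable (6.61%) and 17 less variable (0.0908%). At an unadjusted p under 0.05, limma found 4091 genes (21.9%) more variable than in dual and 5134 genes (27.4%) more variable than in vehicle tumours. Without T_331 and T_352 the counts of more variable genes were 50 against dual and 181 against vehicle tumours. The counts moved widely with the tumours that entered: leaving out 1 tumour gave 13 to 2097 more variable genes against dual tumours and 171 to 3169 against vehicle tumours. Against dual tumours the count was 96 without T_331, 102 without T_363, 147 without T_362, 234 without T_355, 328 without T_352, 874 without T_354, 1363 without T_353 and 2097 without T_360, and 13 to 188 without a single dual tumour. Against vehicle tumours it was 684 without T_352, 694 without T_331, 745 without T_355, 999 without T_363, 1249 without T_362, 1853 without T_354, 2324 without T_353 and 3169 without T_360, and 171 to 821 without a single vehicle tumour, the lowest without C_369. With each gene first adjusted within groups for a skeletal muscle score, limma called 0 genes more variable than in dual tumours (2557 at an unadjusted p under 0.05) and 35 more variable than in vehicle tumours.

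Genes of sterol and fatty acid synthesis stood out among the calls. This textbook list of 34 genes was assembled after the values were seen, so its count is not independent evidence. Of the 34, limma called 20 more variable in triple than in dual tumours and 25 more variable than in vehicle tumours. Beside this, 1.51% and 6.61% of all genes were called more variable. None of the 34 was called less variable in either comparison. The SD was larger in triple than in dual tumours for 33 of the 34, and likewise against vehicle tumours, where 74.8% and 81.4% of all genes did so. The list's median SD was 0.71 in triple, 0.27 in dual and 0.17 in vehicle tumours.

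Sqle encodes squalene epoxidase, an enzyme of the later sterol pathway, and lies at chr15:59186926-59203041 (GRCm39, plus strand). Its level was 7.33 log2 CPM in T_331, 6.99 in T_362, 6.97 in T_363, 6.48 in T_360, 5.66 in T_354, 5.47 in T_353, 4.96 in T_355 and 4.56 in T_352, against 6.59 to 7.30 in dual tumours and 6.75 to 7.31 in vehicle tumours. T_352 to T_355 and T_360 lay below every dual and vehicle tumour, T_362 and T_363 lay within both ranges, and T_331 lay just above them. Its SD was 1.03 in triple, 0.26 in dual and 0.17 in vehicle tumours (limma adjusted p = 0.012 against dual and 0.00193 against vehicle). The spread call for Sqle held whichever single tumour was left out, with limma adjusted p up to 0.0343 against dual and up to 0.00944 against vehicle tumours. It was lost on muscle adjustment in both comparisons (limma adjusted p = 0.162 against dual and 0.0557 against vehicle) and, against dual tumours, when only those 2 groups entered (limma adjusted p = 0.183).

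Other genes of the list ranked the tumours in a similar way. Srebf2, the gene of SREBP-2 itself, had 6.92 log2 CPM in T_352, 6.99 in T_355, 7.22 in T_354 and 7.25 in T_353, and 7.84 to 8.43 in the other 4 triple tumours, against 7.98 to 8.42 in dual and 7.86 to 8.34 in vehicle tumours. Its SD was 0.58 in triple, 0.16 in dual and 0.16 in vehicle tumours (limma adjusted p = 0.00941 against dual and 0.00345 against vehicle). The call for Srebf2 also held in both comparisons whichever single tumour was left out. It was lost on muscle adjustment in both comparisons and, against dual tumours, when only those 2 groups entered.

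Further members followed with smaller or larger ranges. Idi1, an isomerase of the early pathway, ranged 8.57-fold over the triple tumours, lowest in T_352, with an SD of 1.22 in triple, 0.47 in dual and 0.14 in vehicle tumours. Elovl6 and Scd1, which elongate and desaturate fatty acids, had SDs of 0.77 and 0.79 in triple, 0.23 and 0.25 in dual, and 0.14 and 0.15 in vehicle tumours. Fasn, the fatty acid synthase, did not pass in either comparison (SD 0.63 in triple, 0.23 in dual and 0.26 in vehicle tumours); there T_352 alone was low, at 6.87 log2 CPM against 7.90 to 8.71 in the other triple tumours.

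In 31 of the 34 sterol and fatty acid genes (91.2%), T_352, T_353, T_354 and T_355 were the 4 lowest triple tumours, a count made after the ranking had been noticed. These 4 were the lowest in 8.97% of all genes. They bear consecutive mouse numbers, whose meaning the labels do not state. They also held the most skeletal muscle reads: the 27 muscle markers summed to 2426 CPM in T_352, 3378 in T_353, 2329 in T_354 and 2317 in T_355, and to 356.01 in T_331, 666 in T_360, 956 in T_363 and 1483 in T_362. Dual tumours held 355.4 to 1286 CPM and vehicle tumours 226 to 734 CPM of these markers. After the muscle adjustment above, 0 of the 20 and 0 of the 25 calls remained. That adjustment takes out all variation shared with the muscle score, so it cannot decide the part of the muscle reads in the sterol result. This part was not tested further. Of the calls, 8 of 20 and 22 of 25 remained without T_331 and T_352, and the single-tumour removals left 5 to 20 of 20 against dual tumours and 23 to 25 of 25 against vehicle tumours. With only the 2 groups compared in the fit, 0 of 20 and 12 of 25 calls remained. Deviations from the group median left 7 of 20 and 18 of 25. Without variance trend 8 and 24 remained, and at an adjusted p under 0.01, 3 and 12.

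Promoter windows were found for 23 of the 34 genes, and 19 of the 23 held CCAAT (82.6%), against 41.1% of all 27025 genes with a window. TCACNCCAC was found in 1 of the 23, Hmgcs1, at 137 bases before the start, against 1.44% of all genes. In the windows printed above, CCAAT began 237, 176 and 45 bases before and 10 bases after the start of Hmgcs1 and 45 and 14 bases before the start of Idi1.

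The axis along which the triple tumours were ordered carried most of their variance. A principal component analysis of the 9362 genes at or above the median level put 72.8% of the variance among triple tumours on the leading component, against 42.99% among dual and 37.1% among vehicle tumours in analyses of their own. The second component held 10.1% in triple, 25.1% in dual and 25.3% in vehicle tumours. The leading scores were 63.9 in T_352, 21.7 in T_355, 11.4 in T_354, 7.71 in T_353, -6.01 in T_360, -22.9 in T_362, -26.4 in T_363 and -49.4 in T_331. In the 6 tumours other than T_331 and T_352 the leading component held 58.3%. Components and clusters are defined by the same values and were not tested.

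The T_352 end of this axis was high in most T cell, macrophage, complement, type I interferon and fibroblast genes listed, and the T_331 end in most listed genes of replication, ribosomes and sterol synthesis. A correlation with the leading component of at least 0.8 was found for 19.5% of all genes, and of at most -0.8 for 18%. At the first end lay 25 of 27 T cell markers, 19 of 22 macrophage markers, 24 of 28 type I interferon response genes, 13 of 15 complement genes, 19 of 25 fibroblast and collagen genes and 10 of 12 adipocyte markers. Other lists were less complete there, with 11 of 16 natural killer cell, 10 of 17 endothelial, 10 of 24 neutrophil, 9 of 20 cytotoxic granule, 9 of 22 inflammatory cytokine, 4 of 16 dendritic cell and 3 of 9 B cell genes. At the other lay 22 of 26 replication and mitosis genes, 25 of 28 cytosolic ribosomal protein genes and 25 of 34 sterol and fatty acid genes. Skeletal muscle markers reached 0.8 in 4 of 27, with a median correlation of 0.72, and interferon gamma response genes in 3 of 22.

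**Figure D3:**
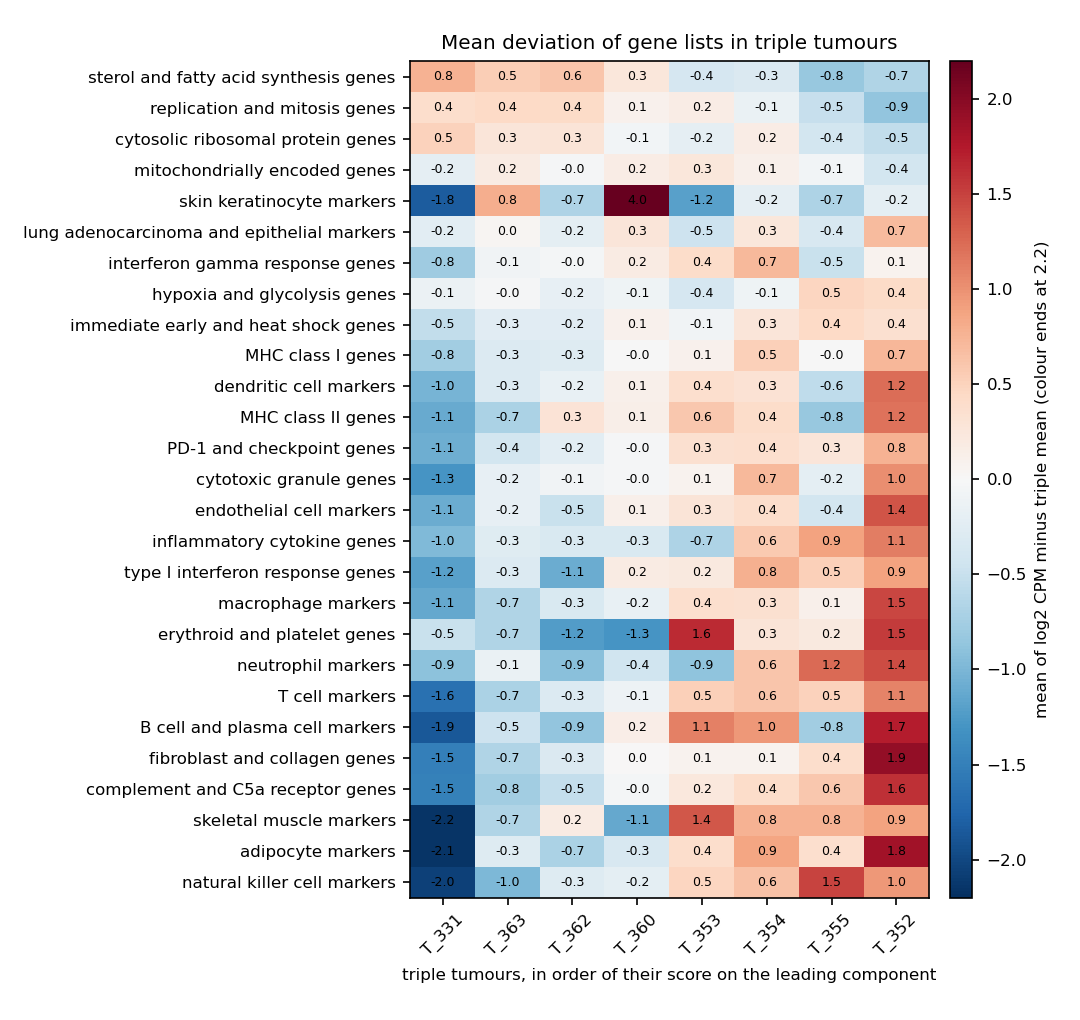
Mean deviation of each gene list's members from their mean over the 8 triple tumours, in log2 CPM, with 1 column per triple tumour; red is above and blue below the group mean. T_352 is high and T_331 low for immune, stromal, fat and vessel lists, and the order turns round for ribosomal, replication and sterol lists.

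The widest spread belonged to genes of several kinds. By SD in triple tumours the leading 10 of the genes at or above the median level, called well expressed from here on, were Myh4, Prg4, Pi16, Col14a1, Tnxb, Lbp, Prelp, Sned1, C4b and Rarres2. Pi16, a marker of adventitial fibroblasts, had 8.88 log2 CPM in T_352, 7.03 in T_355, 6.55 in T_354, 6.42 in T_353, 5.82 in T_360, 4.65 in T_362, 3.33 in T_363 and 1.86 in T_331, a 129-fold range. Dual tumours had 2.55 to 4.95 and vehicle tumours 2.44 to 4.39, so 5 of 8 triple tumours lay above both groups and T_331 below both. Its SD was 2.22 in triple, 0.83 in dual and 0.62 in vehicle tumours (limma adjusted p = 0.0997 against dual and 0.0396 against vehicle). The call against vehicle tumours was lost without T_331, T_363 or any vehicle tumour but C_375, with limma adjusted p up to 0.113. Col14a1, a collagen of fibril surfaces, ranged 133-fold, from 1.98 log2 CPM in T_331 to 9.03 in T_352.

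Col1a1, the main fibrillar collagen gene, had 13.88 log2 CPM in T_352, 10.08 to 11.51 in the 6 tumours between and 7.74 in T_331, against 8.12 to 11.996 in dual and 6.61 to 9.07 in vehicle tumours. Its spread did not pass in either comparison (SD 1.72 in triple, 1.27 in dual and 0.84 in vehicle tumours). Across the 25 fibroblast and collagen genes, summed CPM was 66673 in T_352, 7018 to 18801 in the other triple tumours, 7036 to 18992 in dual and 11267 to 22071 in vehicle tumours. T_352 alone lay above the other groups in this sum. limma called 0 of the 25 in either comparison, and at an unadjusted p under 0.05 it found 2 more variable than in dual tumours, where 21.9% of all genes were, and 7 more variable than in vehicle tumours, where 27.4% were.

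Macrophage genes also differed widely between triple tumours, with T_352 highest in Csf1r and Mrc1. Csf1r, the receptor that macrophages need to survive, had 9.51 log2 CPM in T_352, 8.58 in T_353, 8.23 in T_354, 7.88 in T_355, 7.76 in T_360, 7.56 in T_362, 7.06 in T_363 and 6.55 in T_331, against 6.46 to 7.22 in dual and 7.14 to 8.01 in vehicle tumours. T_352, T_353 and T_354 lay above both other groups, and T_331 fell within the dual range. Over the 22 macrophage markers the median SD was 0.84 in triple, 0.30 in dual and 0.25 in vehicle tumours. limma called 2 of the 22 more variable than in dual tumours, Mrc1, the mannose receptor, and Cd14, a co-receptor for endotoxin. It called 11 of the 22 more variable than in vehicle tumours, among them Adgre1 (F4/80), C1qa and Trem2. The share called over all genes was 1.51% against dual and 6.61% against vehicle tumours. At an unadjusted p under 0.05 limma found 17 of the 22 more variable than in dual tumours, beside 21.9% of all genes. Against vehicle tumours it found 19, beside 27.4% of all genes. Mrc1 ran from 6.00 log2 CPM in T_363 to 9.25 in T_352. Without T_331 and T_352, 0 of the 2 and 5 of the 11 calls remained, and after muscle adjustment 0 of the 2 and 0 of the 11. The same 0 and 0 remained with deviations from the group median, and with only the 2 groups compared in the fit. Each of the 2 calls against dual tumours was lost without T_331, T_352 or T_355 and without most single dual tumours, with limma adjusted p up to 0.193 for Mrc1 and 0.163 for Cd14.

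The target of the third agent was itself among the variable genes. C5ar1, which encodes the C5a receptor and lies at chr7:15980668-15993465 (GRCm39, minus strand), had 8.25 log2 CPM in T_352, 7.33 in T_355, 7.24 in T_354, 6.97 in T_353, 6.61 in T_360, 6.12 in T_362, 5.79 in T_363 and 5.45 in T_331. Dual tumours had 5.46 to 6.10 and vehicle tumours 4.71 to 5.26, so 6 of the 8 triple tumours lay above both groups. Its SD was 0.92 in triple, 0.25 in dual and 0.19 in vehicle tumours (limma adjusted p = 0.0506 against dual and 0.0262 against vehicle). Without C_369 the limma adjusted p against vehicle tumours was 0.0539. The mRNA level of C5ar1 does not show how far the antagonist occupied the receptor, which was not measured here.

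Of 15 complement genes, limma called 5 more variable in triple than in vehicle tumours and 0 more variable than in dual tumours (7 at an unadjusted p under 0.05, beside 21.9% of all genes). Against vehicle tumours 6.61% of all genes were called more variable. At an unadjusted p under 0.05 limma found 9 of the 15 more variable than in vehicle tumours, beside 27.4% of all genes. The 5 called were C5ar1, C5ar2, the second C5a receptor, C3ar1, the C3a receptor, and the components C2 and C4b. C4b ran from 3.999 log2 CPM in T_331 to 10.21 in T_352, a 74.2-fold range, against 4.86 to 6.79 in dual and 3.87 to 5.47 in vehicle tumours. Of these 5 calls, 2 remained without T_331 and T_352, and 1 after muscle adjustment. With deviations from the group median, or with only the 2 groups compared in the fit, 0 of the 5 remained. The call of C4b was lost without T_331, T_362, T_363 or any vehicle tumour but C_375, with limma adjusted p up to 0.0775.

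T cell genes spread over a 9.26-fold range in sum without a single gene passing the test of spread. The 27 T cell markers summed to 772 CPM in T_352, 493 in T_355, 430 in T_354, 383 in T_353, 278 in T_360, 225 in T_362, 182 in T_363 and 83.4 in T_331, against 81.5 to 218 CPM in dual and 72.6 to 152 CPM in vehicle tumours. In all but T_331 and T_363 the sum exceeded every dual and vehicle tumour. The 27 include Thy1, which is also on the fibroblast list and had 6982 reads in T_352, 3608 in T_355 and 403 in T_331. A sum without Thy1 was not taken. Cd3e, a chain of the T cell receptor complex, had 3.99 log2 CPM in T_352, 2.48 to 3.36 in the 6 between and 0.83 in T_331, which stood for 29 to 268 reads. Its SD was 0.94 in triple, 0.58 in dual and 0.43 in vehicle tumours (limma adjusted p = 0.532 against dual and 0.368 against vehicle). The SD was larger in triple than in dual tumours for 26 of the 27 and larger than in vehicle tumours for 24. Of all genes, 74.8% and 81.4% had a larger SD in these comparisons. At an adjusted p under 0.05 limma called 0 of the 27 in either comparison; at an unadjusted p under 0.05 it found 7 more variable in each, close to the 21.9% and 27.4% of all genes.

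Killing genes followed in part. Gzmb, a protease of cytotoxic granules, had 7.72 log2 CPM in T_352 and 7.50 in T_355, against 4.60 in T_331, and Prf1, the pore-forming perforin, had 6.51 in T_355 and 6.32 in T_352, against 3.70 in T_331. Ncr1, a receptor of natural killer cells, was highest in T_355 at 4.36 and lowest in T_331 at 0.16. None of these 3 passed in either comparison, and granzyme genes have close relatives that may share reads. Among checkpoint genes Pdcd1, which encodes PD-1, had an SD of 0.44 in triple, 0.42 in dual and 0.85 in vehicle tumours. Cd274, which encodes its ligand PD-L1, had SDs of 0.70 in triple, 0.50 in dual and 0.50 in vehicle tumours.

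Type I interferon genes were low in 3 triple tumours and high in the other 5 in their mean deviation. Mx1, an antiviral GTPase at chr16:97248235-97264107 (GRCm39, minus strand), had 6.82 log2 CPM in T_352, 6.73 in T_354, 6.68 in T_355, 6.55 in T_353 and 6.17 in T_360, and 4.59 in T_363, 3.56 in T_362 and 2.75 in T_331. The first 5 lay above the dual range of 3.92 to 5.56 and the vehicle range of 2.67 to 4.83, and the other 3 lay within or below the dual range. Its SD was 1.62 in triple, 0.65 in dual and 0.70 in vehicle tumours (limma adjusted p = 0.0465 against dual and 0.031 against vehicle). The call against dual tumours was lost without T_331, T_362, T_363 or any of the 8 dual tumours, with limma adjusted p up to 0.19. The call against vehicle tumours was lost without T_331, T_362, C_351, C_356, C_358 or C_369, with limma adjusted p up to 0.164. Of 28 type I interferon genes, Mx1 was the 1 called in each comparison. The share of all genes called more variable was 1.51% against dual and 6.61% against vehicle tumours. At an unadjusted p under 0.05 limma found 5 of the 28 more variable than in dual tumours and 8 more variable than in vehicle tumours. These counts were close to the 21.9% and 27.4% of all genes.

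Genes that answer mainly to interferon gamma did not, as a list, vary more in triple than in dual or vehicle tumours. Their median SD was 0.56 in triple, 0.56 in dual and 0.71 in vehicle tumours, against 0.453 over all genes in triple tumours. Of 22 listed genes, 7 were among the 1000 well-expressed genes with the largest SD in triple tumours, Cxcl9, Ccl5 and Tgtp1 among them. Irgm2, an interferon-inducible GTPase at chr11:58090444-58113608 (GRCm39, plus strand), had 7.26 to 7.99 log2 CPM (median 7.68) in triple tumours, 6.09 to 7.49 (median 7.03) in dual and 5.71 to 7.32 (median 6.86) in vehicle tumours. Its SD was 0.26 in triple, 0.49 in dual and 0.67 in vehicle tumours, and it was called less variable than in vehicle tumours (limma adjusted p = 0.0349). Gbp3, a guanylate-binding protein gene, had SDs of 0.32 in triple, 0.48 in dual and 0.79 in vehicle tumours and was likewise called (limma adjusted p = 0.0326). Both calls were lost without T_352, T_363, C_358, C_364 or C_375, and that of Irgm2 also without C_369, with limma adjusted p up to 0.139. Of 22 interferon gamma response genes, 11 had a larger SD in triple than in dual tumours and 7 a larger SD than in vehicle tumours, where 74.8% and 81.4% of all genes did. Irgm and Gbp genes have near-identical copies that may share reads, so these values are uncertain.

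At least 1 match to the interferon-stimulated response element lay in 11 of 21 type I interferon promoter windows (52.4%) and in 11 of 16 interferon gamma windows (68.8%), against 3.99% of all 27025 genes. The motif printed above began 120 bases before the start in Rsad2, 156 and 122 bases before in Ifit3 and 64 bases before in Irgm2.

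**Figure D4:**
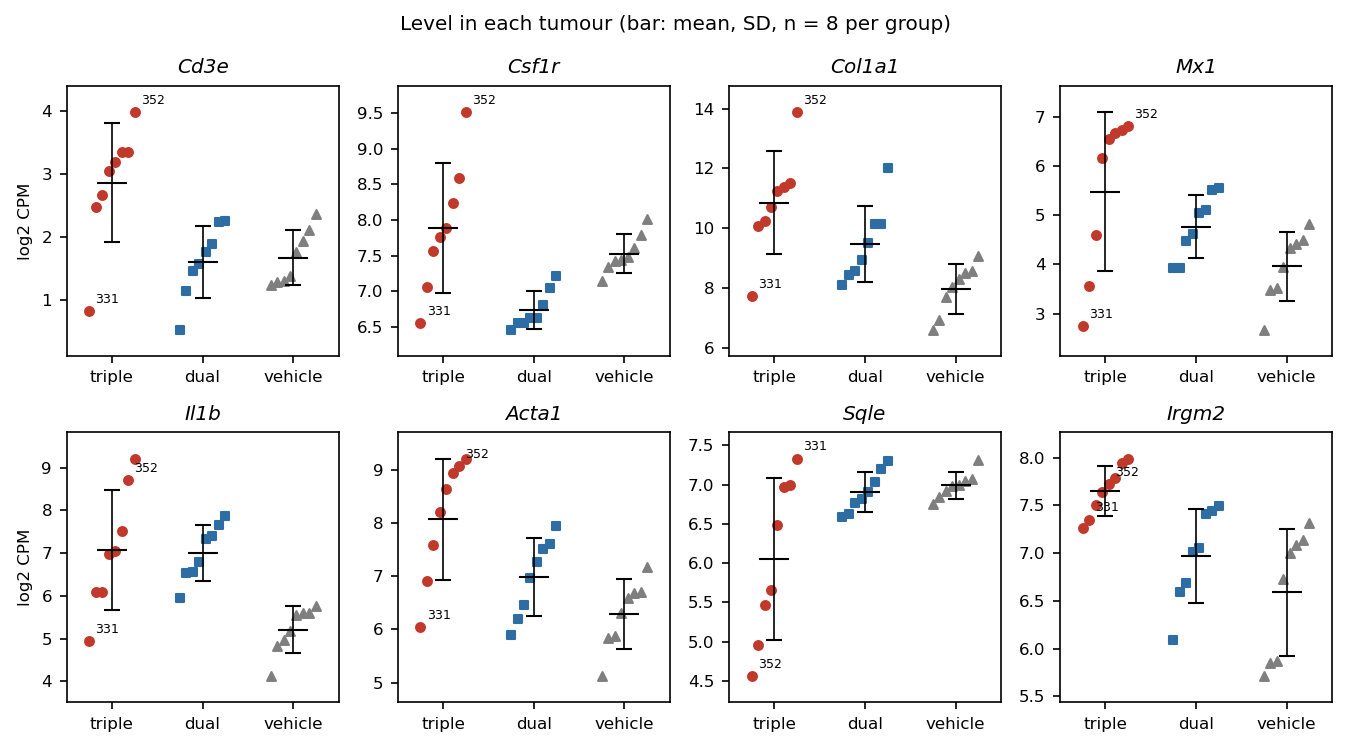
Log2 CPM of 8 genes in each tumour of the triple, dual and vehicle groups, with the group mean and SD (n = 8 each); T_331 and T_352 are marked in the triple group. For Cd3e, Csf1r, Col1a1, Mx1 and Acta1, T_331 is the lowest triple tumour, while for Sqle it is the highest and for Irgm2 the triple points lie closer together than those of the other groups.

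Neutrophil and inflammatory genes were high in T_355 and T_352. Il1b, the interleukin-1 beta gene, had 9.21 log2 CPM in T_355, 8.71 in T_352, 4.94 in T_331 and 6.08 to 7.52 in the other 5, against 5.96 to 7.87 in dual and 4.12 to 5.77 in vehicle tumours. S100a8, a calcium-binding protein abundant in neutrophils, had 8.85 in T_355, 7.79 in T_352, 7.49 in T_354 and 5.59 to 6.77 in the other 5 triple tumours, against 7.00 to 8.15 in dual and 1.54 to 4.68 in vehicle tumours. The 24 neutrophil markers summed to 4681 CPM in T_355 and 4204 in T_352, and to 656 to 2578 CPM in the other 6 triple tumours. Dual tumours held 989 to 2070 and vehicle tumours 171 to 287 CPM. limma called 0 of the 24 more variable than in dual tumours (15 at an unadjusted p under 0.05, beside 21.9% of all genes). It called 3 more variable than in vehicle tumours, Csf3r, Hdc and Mxd1, beside 6.61% of all genes. At an unadjusted p under 0.05 it found 9 of the 24 more variable than in vehicle tumours, beside 27.4% of all genes.

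T_355 also had the lowest summed level of the 11 class II antigen presentation genes, 360.6 CPM, against 446 to 1307 in the other triple tumours, while their mean log2 level was lowest in T_331. H2-Ab1, a chain of the class II molecule, had 6.02 log2 CPM in T_355, 6.29 in T_363, 6.66 in T_331, 7.06 in T_360 and 7.67 to 7.82 in T_352, T_353, T_354 and T_362, against 6.75 to 7.78 in dual and 8.40 to 9.86 in vehicle tumours. Every triple tumour lay below every vehicle tumour, and the triple and dual ranges overlapped. Ciita, the master activator of class II genes, ran from 1.93 in T_331 to 4.58 in T_352 and was called more variable than in dual tumours (SD 1.01 in triple and 0.36 in dual tumours, limma adjusted p = 0.0445). H2-DMa, which helps load the peptide, was called as well (SD 0.69 in triple and 0.19 in dual tumours, limma adjusted p = 0.0429). Both calls were lost without T_331, T_352, T_363 or any dual tumour but D_370, that of H2-DMa also without D_370, and that of Ciita also without T_355 or T_362. None of the 11 class II genes reached 0.8 with the leading component.

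Reads of genes that mark muscle, fat or skin differed widely between triple tumours. Myh4, a myosin heavy chain of fast muscle fibres, had 8.64 log2 CPM in T_353 and 0.16 in T_331, a 357.2-fold range and the largest SD of the well-expressed genes, 2.69, against 1.90 in dual and 2.05 in vehicle tumours. Of 27 muscle markers, 26 had a larger SD in triple than in dual tumours and 27 a larger SD than in vehicle tumours. The share over all genes was 74.8% and 81.4%. limma called 1 of the 27, Myh2 against vehicle tumours, where 6.61% of all genes were called more variable. Adipocyte markers summed to 947 CPM in T_352 and 156 in T_331, with 230.01 to 454 in the other 6, against 133 to 262 in dual and 81.2 to 155 in vehicle tumours. Among these markers Adipoq had 2 to 144 reads in triple tumours, Fabp4 87 to 2044 and Car3 99 to 1258. Car3 was also among the genes closest to Acta1 in pattern, so the sum may not stand for fat alone. Krt14, a keratin of basal skin cells, had 1186 reads in T_360, 38 in T_363, 6 in T_362, 2 in T_354 and 0 in the other 4 triple tumours, against at most 3 reads in dual and at most 31 reads in vehicle tumours. The part of fat and skin in the immune and stromal results was not tested. For muscle, the adjusted fit left 0 macrophage calls and 1 complement call. That fit cannot decide the part of muscle. The muscle markers had a median correlation of 0.72 with the leading component, so the adjustment also takes out variation that other genes share with it.

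Growth genes were lowest where immune and stromal genes were highest. The 26 replication and mitosis genes summed to 1683 CPM in T_352, 2215 in T_355, 2821 in T_354 and 3340 to 4136 in the other 5, against 2194 to 3905 in dual and 1866 to 3079 in vehicle tumours. Mcm7, a subunit of the replication helicase, had 6.04 log2 CPM in T_352 and 7.99 in T_331 and correlated at -0.97 with the leading component. Mki67, a proliferation marker, behaved otherwise, with 8.41 in T_353, 7.27 in T_354 and a correlation of -0.48. The 28 ribosomal protein genes summed to 11731 CPM in T_352 and 24891 in T_331. Rpl7, a protein of the large subunit, had SDs of 0.33 in triple, 0.10 in dual and 0.09 in vehicle tumours (limma adjusted p = 0.0489 against dual and 0.0306 against vehicle). The call against dual tumours was lost without T_331, T_352, T_355, T_362, T_363 or any dual tumour, and that against vehicle tumours without T_331, T_352, T_355, C_358, C_361 or C_369, with limma adjusted p up to 0.0908.

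At the other extreme were abundant genes that hardly differed between triple tumours. Among the tenth of genes with the highest mean level, Pdcd6ip, Csnk1a1 and Ppp2r5a had the smallest SD in triple tumours, 0.04 each. Pdcd6ip, which acts in membrane scission, had 8.07 to 8.18 log2 CPM over the 8 triple tumours, 7.88 to 8.16 in dual and 7.54 to 7.80 in vehicle tumours. Dhx8, an RNA helicase of splicing, had an SD of 0.04 in triple, 0.16 in dual and 0.22 in vehicle tumours and was called less variable than in vehicle tumours (limma adjusted p = 0.0467). That call was lost without T_331, T_352, T_355, T_362, T_363 or any vehicle tumour, with limma adjusted p up to 0.0983.

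The genes with the largest SD ratios among those called were mostly tight in the group set against them. Against dual tumours they were Dmpk, Lsm14b, Cdc27, Rap2b, Fkbp15, Ptpro, Hsd17b7, Itga6, Pawr and Renbp. Renbp, which acts on amino sugars, had SDs of 0.71 in triple and 0.11 in dual tumours and followed the leading component at 1.00; its call was lost without T_331, T_355, T_362, T_363 or any dual tumour, with limma adjusted p up to 0.0853. Hsd17b7, an enzyme of cholesterol synthesis, had SDs of 0.89 in triple and 0.13 in dual tumours, and its limma adjusted p was 0.051 without D_367. Against vehicle tumours the leading genes were Tbc1d14, Syncrip, Rhox5, Asf1a, Adss, Mbnl3, Rhobtb3, Slc16a10, Cdca7l and Purb. Syncrip, an RNA-binding protein gene, had 7.11 log2 CPM in T_352 and 7.92 in T_331, against 7.84 to 7.89 in vehicle tumours.

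Single genes that stand for a cell type or programme were then correlated in pairs across the 8 triple tumours. Of 231 pairs of 22 such genes, 32 passed by Pearson's r with an exact permutation p adjusted by Benjamini-Hochberg over the 231. Of the 32, 30 were positive and 2 negative. By Spearman's rho 24 passed, and 20 passed by both. Close correlation was common in this group, where 19.3% of all pairs of the 9362 well-expressed genes reached an absolute r of 0.8. Whether the 22 genes varied together more often than other genes was not tested. Cd3e and Csf1r ranked the 8 tumours identically: r = 0.90 (exact permutation p = 0.00208, adjusted p = 0.0248) and rho = 1.00 (exact permutation p = 4.96e-05, adjusted p = 0.0115). That p for rho is the smallest these permutations can give. Without the 2 tumours farthest from the median of Cd3e, r was 0.94. In the other groups the r of this pair was -0.33 in dual and 0.17 in vehicle tumours; the difference between groups was not tested.

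Other called pairs held a T cell with a vessel gene, a killing with an early-response gene, and a macrophage gene with the C5a receptor. They are examples and not particular links. C5ar1, for 1, also passed with Fos (r = 0.97), Gzmb (r = 0.94), Pecam1 (r = 0.91), Col1a1 (r = 0.91) and Cd3e (r = 0.88), among others. Cd3e and Pecam1, an endothelial adhesion gene, had r = 0.94 and rho = 0.93 (exact permutation p = 0.000298 and 0.00223, adjusted p = 0.0223 and 0.0397), with r = 0.88 without the 2 farthest tumours. Gzmb and Fos, an immediate early transcription factor gene, had r = 0.98 and rho = 0.95 (exact permutation p = 9.92e-05 and 0.00114, adjusted p = 0.0223 and 0.0397), with r = 0.97 without the 2 farthest. Csf1r and C5ar1 had r = 0.94 and rho = 0.90 (exact permutation p = 0.000818 and 0.00456, adjusted p = 0.0223 and 0.0439), with r = 0.80 without the 2 farthest. The r of Csf1r with C5ar1 was 0.13 in dual and 0.25 in vehicle tumours.

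Pairs with muscle were among those called. Cd8a, a co-receptor of killer T cells, and Acta1, skeletal muscle actin, had r = 0.92 and rho = 0.95 (exact permutation p = 0.00216 and 0.00114, adjusted p = 0.0248 and 0.0397), with r = 0.87 without the 2 farthest tumours. Cd3e and Acta1 had r = 0.85 and rho = 0.90 (exact permutation p = 0.00657 and 0.00456, adjusted p = 0.0474 and 0.0439), with r = 0.60 without the 2 farthest and 0.65 without T_331. The 2 negative pairs were Ncr1 with Krt8 (r = -0.91, exact permutation p = 0.00298, adjusted p = 0.0299) and H2-Ab1 with Slc2a1, a glucose transporter gene (r = -0.86, exact permutation p = 0.00176, adjusted p = 0.0239); by rho neither passed (rho = -0.81 for each, exact permutation p = 0.0218, adjusted p = 0.101). Krt8 rested on 1 to 54 reads. Without the 2 farthest tumours r was -0.80 for Ncr1 with Krt8 and -0.74 for H2-Ab1 with Slc2a1. Cd3e did not pass with S100a8 (r = 0.32 and rho = 0.31, exact permutation p = 0.461 and 0.462, adjusted p = 0.591 and 0.567) or with Mki67 (r = -0.21 and rho = -0.31, exact permutation p = 0.666 and 0.462, adjusted p = 0.781 and 0.567).

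The number of pairs that passed depended on single tumours. It was 0 without T_354 (67 at an unadjusted exact permutation p under 0.05; by Spearman 0, with 54 unadjusted), 2 without T_352, 9 without T_331, 19 without T_362, 20 without T_363, 21 without T_360, 36 without T_353 and 43 without T_355. Of the 32 pairs, 19 kept an absolute r of at least 0.8 without the 2 tumours farthest from the median of the first gene, 0 changed sign and 0 dropped under 0.5.

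**Figure D5:**
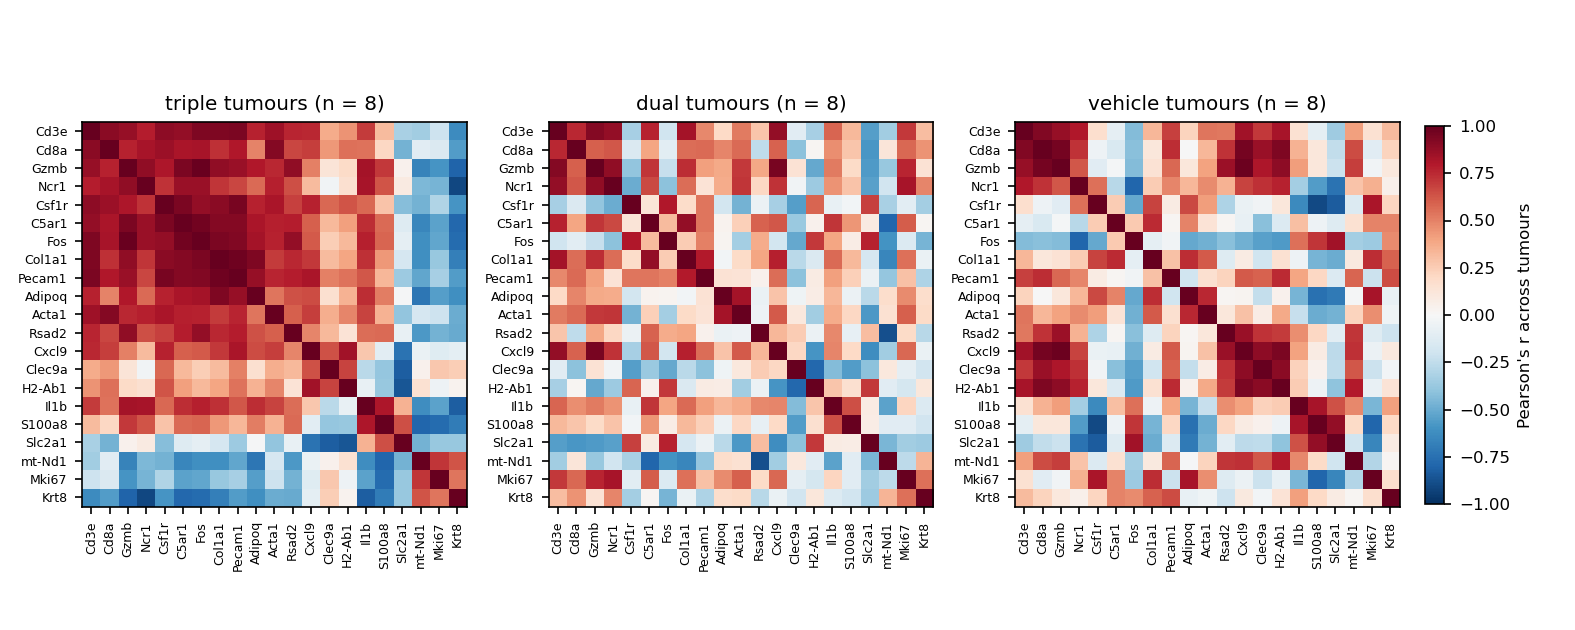
Pearson's r between pairs of 21 genes that each stand for a cell type or programme, across the 8 tumours of the triple, dual and vehicle groups (Krt14, at 0 reads in 4 of the 8 triple tumours, is left out). The red block from Cd3e to Rsad2 covers immune, stromal, vessel, fat and muscle genes in triple tumours; in dual tumours the r of Cd3e with Csf1r is -0.33 and in vehicle tumours 0.17.

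Within many lists genes were more closely correlated in triple tumours, on a background of more correlation among all genes, but not in every list. Over all pairs of the 9362 genes the median absolute r was 0.538 in triple, 0.393 in dual and 0.371 in vehicle tumours, and 19.3% of pairs reached an absolute r of 0.8 in triple, 7.21% in dual and 5.90% in vehicle tumours. The median r between macrophage markers was 0.85 in triple, 0.30 in dual and 0.19 in vehicle tumours. For complement genes it was 0.90 in triple, 0.42 in dual and 0.37 in vehicle tumours, and for adipocyte markers 0.83 in triple, 0.13 in dual and 0.64 in vehicle tumours. Type I interferon genes were tightly linked in every group, at 0.95 in triple, 0.91 in dual and 0.92 in vehicle tumours. For interferon gamma genes the value was 0.76 in triple, 0.86 in dual and 0.94 in vehicle tumours. It was also lowest in triple tumours for mitochondrially encoded genes (0.28 in triple, 0.64 in dual and 0.63 in vehicle tumours), immediate early and heat shock genes (0.25 in triple, 0.37 in dual and 0.42 in vehicle tumours), cytotoxic granule genes (0.49 in triple, 0.53 in dual and 0.67 in vehicle tumours) and inflammatory cytokine genes (0.60 in triple, 0.65 in dual and 0.74 in vehicle tumours). These are descriptions over 8 tumours each, and the differences between groups were not tested.

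By likeness of pattern over the 8 triple tumours, the well-expressed genes closest to Cd3e were Cyfip2, Fgl2, Serpinb1a, Nod1 and Gsdmd (r = 0.98 to 0.99). Those closest to S100a8 were S100a9 (its partner subunit), Cxcr2, Bsg, Dedd2 and Nfil3 (r = 0.97 to 0.99). Those closest to Acta1 were Tnnt3, Mybpc1, Tnnc2, Car3 and Nrap (r = 0.99 each), of which Tnnt3, Mybpc1 and Tnnc2 encode parts of the muscle sarcomere.

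Clustering of the 1000 well-expressed genes with the largest SD in triple tumours gave 1 cluster of 722 genes, 1 of 253 and 4 of 13, 6, 4 and 2 genes. The first was highest in T_352 and lowest in T_331 and held every macrophage (18), neutrophil (15), fibroblast (18), muscle (18) and type I interferon gene (16) among the 1000; among its closest genes were Selplg, Fes and Serpina3n. The second ran the other way and held 20 of 20 sterol and fatty acid genes. The third, with Etv1, Ptn, Cdkn2c and Mgst3, was lowest in T_355 and highest in T_362. The fourth, with Dusp5, Lif, Rgs16, Rgs1 and Itga2, was led by T_355: Lif, a cytokine of the interleukin-6 family, had 5.77 log2 CPM there and 3.41 to 4.71 in the other triple tumours. The fifth held Tet2, Zbtb20, Malat1 and Plxna4, and the last, of 2 genes, was led by Zbed6, which had 5.04 in T_354, 5.83 in T_352 and 6.601 to 6.83 in the other 6.

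A single tumour stood apart from the other 7, by a gap over range above Dixon's limit for 8 samples, in 1913 genes of the triple group (10.2%), 1540 genes of the dual group (8.23%) and 1507 genes of the vehicle group (8.05%). In the triple group this was T_352 for 1209 genes, in 854 of them as the lowest tumour and in the rest as the highest. It was T_354 for 194, T_355 for 175, T_331 for 159, T_362 for 71, T_363 for 47, T_353 for 33 and T_360 for 25. The largest counts in the other groups were 682 for D_370 and 477 for C_339.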

How the data were processed

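Bulk RNA was sequenced from 24 tumours, 8 per group, with a stranded mRNA kit per the labels' protocols. FastQC 0.11.8, STAR 2.7.9a, featureCounts 1.6.0, edgeR, limma and GRCm39 are named in the submitters' processing notes, with no order given. The deposited table held log2 CPM values for 18723 genes, a unit identified from the values: with 0.5 reads added before the log, all of them turned back into whole reads within 0.01. These reads gave the depth and the counting error, which covers counting error only, since reads carried no molecular identifiers. All tests used the log2 values as deposited.

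SDs were taken per gene and group. Spread was tested on absolute deviations from the group mean, scaled for 8 tumours, with limma 3.58.1 (R 4.3.3, variance trend, all 3 groups, adjusted p under 0.05), checked on simulated data. Distances and gene pairs used two-sided exact permutation tests over 12870 assignments and 40320 pairings (scipy 1.17.1, numpy 2.4.6, pandas 2.3.3, Python 3.11.15; figures matplotlib 3.10.9). Principal components were taken over genes from the median level upwards, and clusters over the 1000 of these with the largest SD.

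The members and gene lists were chosen with earlier results of these data known, and the sterol list and the ranking of T_352 to T_355 after the values were seen. Genes were named by a rule: the largest and smallest SDs and SD ratios, tumours far apart, cluster leaders, 22 genes standing for cell types, the widest list members and the closest patterns. Further genes that belong to a described list or pathway were named after their values were seen. Alternatives covered scaling, filters, the centre of deviations, limma settings, a muscle score, rank correlation and left-out tumours. Leaving out T_331 and T_352 together, and the other settings for the count of genes with 1 tumour apart, were chosen after seeing the data. Reads of near-identical gene families may be shared, so their values are uncertain. Promoter sequences came from RefSeq (GRCm38.p6). No window was used for Mx1, Sqle, Fdps and Fdft1. Some genes that the rule selects are not reported here.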

Additional observations from a re-analysis of the deposited data

Results flagged for a closer look

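In the values below, 1 triple tumour lay far from the other 7, by a gap to its nearest neighbour, as a share of the whole range, above Dixon's limit for 8 samples; some such values arise by chance in any large set of groups of 8. The mean log2 level of skin keratinocyte markers was highest in T_360, with a gap of 0.548 of the range.

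T_352 was far below the others in Gata4 (0.790), a transcription factor gene, Tmem267 (0.771), Rhox5 (0.607), a homeobox gene, and Fasn (0.558). It was far above them in Aspn (0.660), a matrix proteoglycan gene, Lcn2 (0.573), the lipocalin-2 gene, Folr2 (0.537), a folate receptor gene of macrophages, and Stard8 (0.531).

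T_355 was far above the others in Itga2 (0.724), an integrin gene, Hilpda (0.643), a hypoxia-induced lipid droplet gene, and Rab44 (0.589). T_354 was far above them in Bax (0.753), a cell death gene, and far below in Pdpr (0.747) and Vps13c (0.556).

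T_331 was far below the others in Igfbp5 (0.563) and in Cma1 (0.528), a mast cell protease gene, and far above them in Irs2 (0.528), which passes on the insulin signal. T_363 was lowest in Gaa (0.675), the lysosomal glucosidase gene, T_353 in Tnfrsf9 (0.612), a T cell co-stimulator gene, and T_362 was highest in Arfgap3 (0.553).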

How the results depend on the processing

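No paired analysis was possible because the groups share no mouse numbers. The counts of genes with another spread moved most, and for each setting below the cause was not tested. Against dual tumours, more and less variable genes numbered 13 and 0 with deviations from the group median, 30 and 3 without variance trend, 1 and 0 with only those 2 groups, 5 and 0 at an adjusted p under 0.01, and 0 and 0 with the muscle score regressed out (limma; 2557 and 426 at an unadjusted p under 0.05). More variable genes numbered 465 above the 25th percentile of level, 445 with median scaling and 593 with quantile normalization. Without T_331 and T_352 there were 50 more and 6 less variable. Leaving out 1 tumour gave 13 to 2097 more and 1 to 40 less variable genes.

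Against vehicle tumours, more and less variable genes numbered 36 and 1 with the group median, 27 and 3 with 2 groups, 28 and 1 at an adjusted p under 0.01, 35 and 2 with the muscle score regressed out, and 181 and 7 without T_331 and T_352. Less variable genes numbered 7 above the 25th percentile and 27 with median scaling. Leaving out 1 tumour gave 171 to 3169 more and 5 to 34 less variable genes.

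The difference in distance from dual tumours was 0.0900 with the muscle score regressed out (exact permutation p = 0.139) and 0.0631 without T_331 and T_352 (exact permutation p = 0.181). Leaving out 1 tumour gave 0.114 to 0.208 against dual and 0.163 to 0.257 against vehicle tumours. The median log2 SD ratio without T_331 and T_352 was 0.18 against dual and 0.38 against vehicle tumours, and leaving out 1 tumour gave 0.28 to 0.64 and 0.48 to 0.81. The leading component held 53.4% with genes at unit variance and 58.3% without T_331 and T_352, and 65.6% to 78.7% leaving out 1 tumour. The largest cluster held 658 to 772 genes and 0 to 43 pairs passed on leaving out 1 tumour. No result reversed under any alternative run.

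Of 21 genes examined singly and called against dual tumours, the muscle score ended 21 calls, the fit with 2 groups 21, the group median 17 and the removal of T_331 and T_352 14; of 37 called against vehicle tumours these settings ended 35, 31, 32 and 20. Low counts limit Krt8, Krt14 and Adipoq most.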
